A study of Mus musculus with 4 samples.

Results

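Pericytes are the mural cells that sit in the basement membrane of capillaries. Endothelial cells (ECs) recruit them by secreting PDGF-B, which pericytes sense through PDGFRB, and pericytes in turn deposit matrix, regulate capillary tone and help to keep the blood-brain barrier closed. Angiopoietin-1 (*Angpt1*), a ligand that mural cells make, activates the endothelial receptor TIE2 (*Tek*), whereas angiopoietin-2 (*Angpt2*), made mainly by ECs, modulates the same receptor depending on context.

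Brain pericytes were taken here as the cells with over 500 detected genes and under 10% mitochondrial UMIs (unique molecular identifiers, each standing for 1 captured mRNA molecule) in which at least 3 of the 6 markers *Pdgfrb*, *Kcnj8*, *Abcc9*, *Higd1b*, *Atp13a5* and *Vtn* were detected. *Pdgfrb* and *Vtn* together also had to reach 5 UMIs, and the contractile genes *Acta2*, *Tagln* and *Myh11* had to stay under 10 UMIs in sum. These criteria found 677 pericytes among 17999 cells. The WT mice gave 90 and 171 of them (WT1 and WT2) and the KO mice 164 and 252 (KO1 and KO2).

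The 4 mice were 3 months old, with 2 *Angpt2*-WT littermate controls (*Angpt2*+/+, WT1 and WT2) and 2 *Angpt2*-KO mice (*Angpt2*-/-, KO1 and KO2), and each mouse gave 1 library from cerebral microvascular fragments. The mice numbered 1 were female and those numbered 2 male. The knockout was constitutive, made by deleting exon 4 of a floxed allele (chr8:18705651-18705883 in GRCm38, 233 bases, minus strand) with *Pgk-Cre*, and the line had been backcrossed to C57BL6/J, so no result separates loss of *Angpt2* from pericytes from its loss elsewhere or during development. Fragments were pulled down with antibodies to PECAM1, an EC protein, and pericytes were therefore caught through their attachment to ECs. The whole data set held 19809 barcodes with 3067 to 6436 per library, the cells kept had medians of 4088.5 to 7351.5 UMIs, and pairs of libraries shared 1 to 16 barcodes. The labels name the cells of every library as ECs, and a further marker that the criteria did not use, *Rgs5*, separated the pericytes from them: with cells thinned to 1500 UMIs, *Rgs5* was detected in 98.9% to 100% of the low-endothelial pericytes defined in the next paragraph and in 3.74% to 5.82% of ECs. Cells under 1500 UMIs were left out of every share given at that depth.

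Many of the 677 cells also carried endothelial RNA. Cells with fewer *Cldn5* and *Flt1* UMIs than *Vtn* and *Pdgfrb* UMIs are called low-endothelial pericytes. There were 344 of them, 51 and 92 from the WT mice and 91 and 110 from the KO mice. The remaining cells, called endothelial-rich, were 43.3% to 56.3% of the pericytes of a mouse but held 76.4% to 85.4% of their UMIs. Their median depth was 11947 to 32305 UMIs, against 2341.5 to 5110 in low-endothelial pericytes and 4021 to 7638 in ECs. A list of 20 endothelial markers made up 3.23% and 3.80% of the pericyte UMIs in the WT mice and 3.17% and 3.45% in the KO mice, against 4.46% to 4.96% in ECs. A sum over all 677 cells was thus largely a sum of deep barcodes with endothelial RNA. Whether such a barcode held a pericyte attached to an EC, or a pericyte with free endothelial RNA, was not tested.

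In low-endothelial pericytes the endothelial list fell to 0.692% and 0.879% of UMIs in the WT mice, but it remained at 1.44% and 1.32% in the KO mice. The genotypes did not overlap, and the difference of 0.596 percentage points had an exact two-sided permutation p of 0.33, the smallest that 2 against 2 mice allow. A stricter set, chosen after seeing this, kept pericytes with at least 10 times as many *Pdgfrb* and *Vtn* UMIs as *Cldn5* and *Flt1* UMIs. It held 265 cells, 46 and 80 from the WT mice and 65 and 74 from the KO mice. Their endothelial list was at 0.162% and 0.217% in WT and 0.183% and 0.256% in KO, so the genotypes overlapped. These strict pericytes are a subset of the low-endothelial pericytes, which are a subset of all 677, and results in the 3 sets are not independent of each other.

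**Figure D1:**
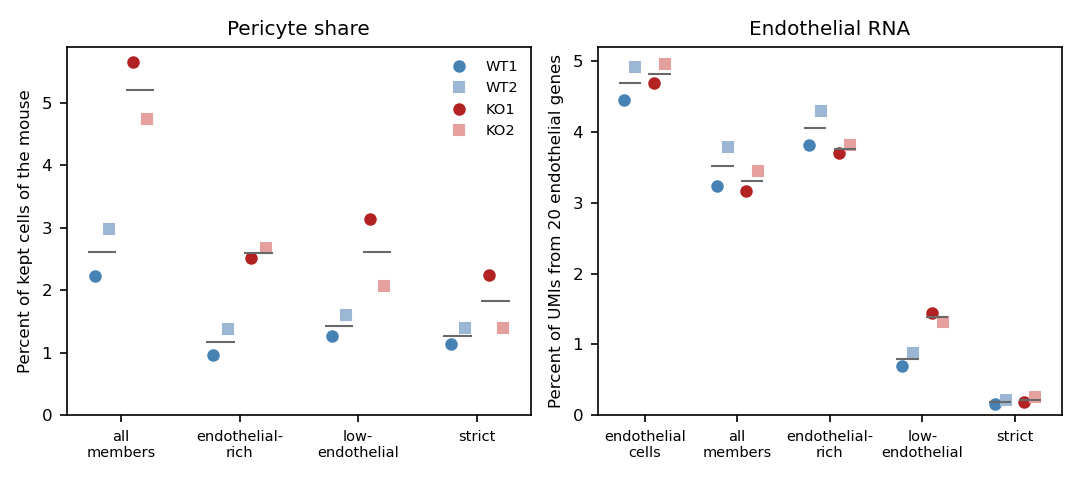
Left, percent of each mouse's kept cells that were pericytes, for all members and for 3 subsets. Right, percent of UMIs from 20 endothelial marker genes in ECs and in the same pericyte sets. Each point is 1 mouse and each line the mean of 2 mice; all members lie at 2.23% and 2.98% in WT and 5.66% and 4.74% in KO, and endothelial RNA differs by genotype in low-endothelial pericytes (0.692% and 0.879% against 1.44% and 1.32%) but overlaps in strict pericytes.

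Pericytes made up a larger share of the cells in the KO libraries. They were 2.23% of cells in WT1 (95% exact binomial interval 1.79% to 2.73%, which covers counting error only) and 2.98% in WT2 (2.55% to 3.45%), against 5.66% in KO1 (4.84% to 6.56%) and 4.74% in KO2 (4.19% to 5.35%). Both KO mice lay above both WT mice, with means of 2.60% ± 0.53 in WT and 5.20% ± 0.65 in KO (SD, n = 2 each), and the difference of 2.60 percentage points had an exact permutation p of 0.33. ECs were 82.6% and 86.0% of WT cells and 77.3% and 80.3% of KO cells. By subset, endothelial-rich pericytes were at 0.965% and 1.38% in WT against 2.52% and 2.67% in KO, low-endothelial pericytes were at 1.26% and 1.60% against 3.14% and 2.07%, and strict pericytes were at 1.14% and 1.39% against 2.24% and 1.39%, where the genotypes overlapped (exact permutation p = 0.667). In a further count, cells under 3000 UMIs were left out and the others thinned to 3000 UMIs before the criteria were applied. Members were then 47 of 3348 and 85 of 4234 cells in WT (1.40% and 2.01%). In KO they were 137 of 2547 and 130 of 3631 (5.38% and 3.58%). These shares also depend on how many members of a library reached that depth. The share of cells in a suspension also depends on how many attached cells a preparation keeps, which was not tested.

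The number of cells at the limits of the definition differed between mice. Per mouse, 1 to 5 members had exactly 5 UMIs of *Pdgfrb* and *Vtn*, and 0 to 6 cells that met the other criteria had 4. Exactly 3 markers were detected in 12 of 90 members in WT1, 11 of 171 in WT2, 5 of 164 in KO1 and 23 of 252 in KO2. Per mouse, 3 to 17 cells had 2. The cap on contractile genes removed more: of the cells passing the marker criteria, 46.7% and 30.8% in WT and 22.6% and 40.1% in KO were over it. Microglial and oligodendrocyte markers were low in low-endothelial pericytes. Haemoglobin genes and the choroid gene *Ttr* reached higher levels in some mice, which are given further below. The microglial list held at most 0.0395% of UMIs and the oligodendrocyte list at most 0.0099%, whereas the smooth muscle list held 0.102% and 0.0957% in WT and 0.0462% and 0.0578% in KO, and the astrocyte list, which includes *Apoe*, 0.292% and 0.216% in WT and 0.136% and 0.140% in KO. Of the fibroblast list, the defining gene *Pdgfra* was at 0 UMIs in all 4 mice, but other members were present. In strict pericytes *Ogn* had 75 and 104 UMIs in WT and 191 and 46 in KO. *Dcn* had 23 and 43 against 69 and 7 there, and *Lama1* had 0. *Igf2*, whose values are given below, is also on this list.

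The genes of the definition describe the cells, and although they were part of the fit across all genes, no test of them is used. Levels are given in CPM, that is UMIs of a gene per 1000000 UMIs of the summed cells of a mouse, with TMM scaling. In low-endothelial pericytes *Vtn*, which encodes the matrix and plasma protein vitronectin, was at 8572 and 12320 CPM in WT and 8979 and 10158 in KO. *Pdgfrb* was at 2110.3 and 1836 CPM in WT and 1423 and 1378 in KO, lower in both KO mice. In strict pericytes the *Pdgfrb* levels were 2645 and 2260.5 against 2503.5 and 2172, with the genotypes overlapping. The channel subunits *Kcnj8* and *Abcc9* form the vascular KATP channel. *Kcnj8* was at 696 and 828 CPM in WT low-endothelial pericytes and 504 and 632 in KO, while *Abcc9* was at 1017 and 866 in WT and 1151 and 1081 in KO. In strict pericytes *Kcnj8* overlapped, at 872 and 1011 CPM against 872 and 1042, and *Abcc9* was higher in both KO mice, at 1232 and 1075 against 2030.2 and 1593. *Higd1b* and *Atp13a5*, both selective for brain pericytes, overlapped between genotypes in low-endothelial pericytes, at 1088 and 1299 CPM against 1264 and 1362 for *Higd1b* and 664 and 942 against 731 and 819.7 for *Atp13a5*. In strict pericytes *Higd1b* was at 1217 and 1474 CPM in WT and 1911 and 2049.6 in KO, without overlap, and *Atp13a5* at 699 and 1230 against 1209 and 1341, with overlap. Among the cells kept under the cap, the contractile genes were lower in the KO mice: *Tagln* was at 250.2 and 190.5 CPM in WT and 52.5 and 81.7 in KO, *Myh11* at 212 and 107 against 25.7 and 62.6, and *Acta2* at 103 and 104 against 47.9 and 95.3. The cap truncates these levels, so they do not describe contractile genes in all mural cells. The study found ACTA2-positive mural cells around malformed KO vessels, and any such cells over the cap are not in these sums. In strict pericytes *Tagln* was still lower in both KO mice, at 331 and 254 CPM against 104 and 68.1, as was *Myh11*, at 263 and 124 against 53.6 and 95.3, whereas *Acta2* overlapped at 90.2 and 129 against 83.4 and 116. Low-endothelial cells with no UMI of these 3 genes, 205 in all, are therefore used below as a further check.

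The question put to the counts was which genes differed by genotype in pericytes, once per set, on UMI sums per mouse. All adjusted p-values below were computed with edgeR (quasi-likelihood F test, Benjamini-Hochberg method across every gene tested in that set), with a threshold of 0.05 and n = 2 mice per genotype, and every fold change is log2 KO over WT with its standard error (SE). Over all 677 cells, 53 of 10948 genes tested were higher (0.484%) and 16 lower (0.146%) in KO. In low-endothelial pericytes 6012 genes were tested, of which 235 were higher (3.91%) and 95 lower (1.58%). Of these 330 genes (5.49%), 3 belong to the definition and are not counted as results, which leaves 234 higher and 93 lower. In strict pericytes 3827 genes were tested, with 20 higher (0.523%) and 37 lower (0.967%), 1 of the 57 (1.49%) belonging to the definition.

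The levels of the called genes in low-endothelial pericytes were set beside those in ECs, in the genotype where the gene was higher. Of the 234 higher genes, 178 were not above the level of ECs in both KO mice, and 56 were. Of the 93 lower genes, 83 were above the level of ECs in both WT mice. The share over all 6012 genes tested was not computed, so these counts are not read as a trait of the called genes. In the 205 cells without contractile UMIs no gene passed in either direction by edgeR (305 of 3920 genes at an unadjusted p under 0.05). For comparison, 506 of 13846 genes passed in ECs (3.65%) and 4 of 9667 in smooth muscle cells (0.0414%). Values in strict pericytes and in ECs are given below beside each result in low-endothelial pericytes. Strict pericytes and the cells without contractile UMIs were chosen after the data were seen, and no mouse was left out of their fits.

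**Figure D2:**
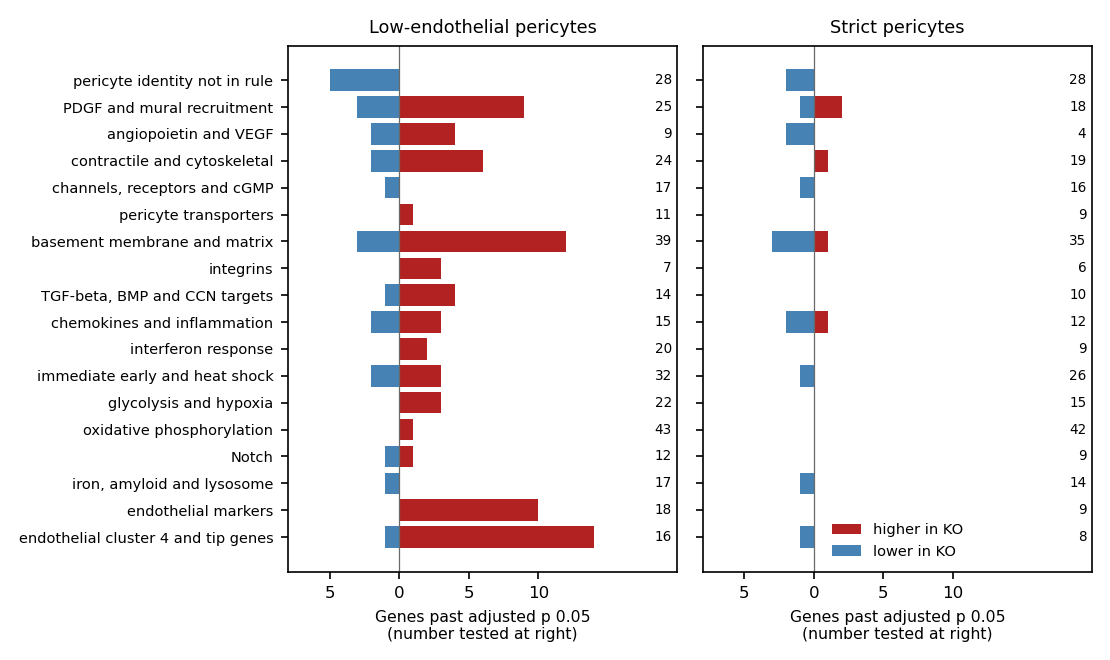
Number of genes past an adjusted p of 0.05 by gene list, to the right of 0 where higher in KO and to the left where lower, in low-endothelial (left panel) and strict pericytes (right panel); the number of genes tested stands at the right. The endothelial marker list has 10 higher genes in low-endothelial pericytes and 0 in strict pericytes, whereas the angiopoietin list has 2 lower genes and the matrix list 3 in both panels.

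*Angpt2* itself was the gene targeted. The libraries count the 3′ ends of transcripts and the deleted exon 4 lies upstream of that end, so *Angpt2* counts do not check the genotype. In low-endothelial pericytes *Angpt2* was at 223 and 114 CPM in WT and 61.9 and 49.0 in KO, lower in both KO mice (log2 fold change -1.49 ± 0.31, adjusted p = 0.00601; without WT1 -0.99, adjusted p = 0.109). In strict pericytes it was at 278 and 144 CPM in WT, from 37 and 29 UMIs, and at 14.9 and 6.81 in KO, from 5 and 1 UMIs, a log2 fold change of -3.97 ± 0.51 (adjusted p = 0.000391). In the cells without contractile UMIs it was at 212 and 38.8 CPM in WT and 37.3 and 37.1 in KO, from 13, 6, 12 and 7 UMIs, so that WT2 lay beside the KO mice and WT1 alone above them, and *Angpt2* was too low there to be tested. ECs went the other way, from a mean of 12.6 CPM in WT to 49.1 in KO (log2 fold change 1.97 ± 0.20, adjusted p = 0.0077). The difference between the genotype changes of low-endothelial pericytes and ECs, tested with mouse and cell type as terms, was -3.45 ± 0.34 (adjusted p = 3.01e-21). This difference test has 2 mice per genotype and draws its variance from all genes together. Its very small p-values, here and below, therefore do not measure the spread of a gene between mice. Over all 677 cells the level was 49.6 and 36.9 CPM in WT and 93.3 and 46.2 in KO (log2 fold change 0.73 ± 0.33, adjusted p = 0.362), so the sum of deep barcodes did not show the fall. Smooth muscle cells of the same libraries had 75.3 and 61.9 CPM in WT and 17.6 and 15.7 in KO (log2 fold change -2.06 ± 0.27, adjusted p = 0.0348), and there the change did not differ detectably from that of low-endothelial pericytes (difference 0.49 ± 0.41, adjusted p = 0.7).

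*Angpt1* was lower too. Its level in low-endothelial pericytes was 179 and 69.3 CPM in the WT mice and 14.01 and 21.8 CPM in the KO mice, from 33, 20, 12 and 8 UMIs. Both KO mice lay below both WT mice, and the log2 fold change was -2.79 ± 0.46 (adjusted p = 0.000829). In strict pericytes the log2 fold change was -3.04 ± 0.59 (adjusted p = 0.0113). *Angpt1* UMIs came from few cells: 14 of 51 and 15 of 92 low-endothelial pericytes had one in WT, and 7 of 91 and 5 of 110 in KO. At 1500 UMIs per cell the shares were 12.2% and 7.32% in WT and 2.25% and 3.30% in KO, against at most 0.251% in ECs, whose mean level was near 1 CPM in both genotypes (1.30 and 1.16). Smooth muscle cells had 80.6 and 76.1 CPM of *Angpt1* in WT and 92.0 and 112 in KO, and the change in low-endothelial pericytes differed from theirs by -3.11 ± 0.46 (adjusted p = 0.000399). Over the list of angiopoietin and VEGF genes, 9 were tested in low-endothelial pericytes, where 3.91% of all genes were higher and 1.58% lower. *Angpt1* and *Angpt2* were lower, and the receptors *Tie1*, *Kdr*, *Nrp1* and *Nrp2* were higher. The calls of *Tie1* and *Nrp1* were lost without WT2 (adjusted p = 0.135 and 0.289) and without KO1 (0.384 and 0.159). In strict pericytes, where 0.523% of all genes were higher and 0.967% lower, 4 of the list were tested. *Angpt1* and *Angpt2* were again lower and none was higher, and the receptors *Tie1* and *Kdr* were too low to be tested there. *Tek* fell short of the threshold, at 59.8 and 83.1 CPM in WT and 52.5 and 35.4 in KO (adjusted p = 0.377).

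**Figure D3:**
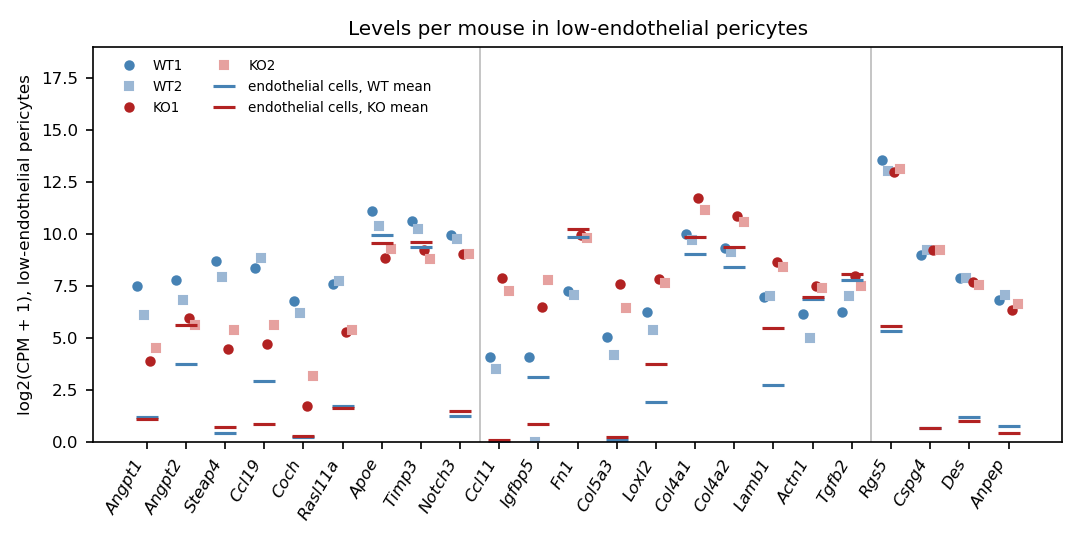
Level of genes named in the text in low-endothelial pericytes on a log2 axis of CPM + 1, 1 point per mouse, with short lines for the mean level in ECs of each genotype; the vertical lines separate genes that were lower in KO, higher in KO and not called. For *Angpt1*, *Steap4*, *Ccl19*, *Coch* and *Rasl11a* the KO points lie below the WT points, for *Ccl11*, *Fn1* and *Col5a3* above them, and for *Rgs5* the genotypes overlap.

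Several genes with large falls had UMIs in a minority of the low-endothelial pericytes. In WT, 11 of 51 and 15 of 92 cells had a UMI of *Steap4*, 15 and 18 of *Ccl19*, 18 and 25 of *Rasl11a* and 4 and 7 of *Coch*. The gene with the lowest fitted log2 fold change among those called, *Moxd1*, had 35 and 12 UMIs in WT and 0 and 4 in KO (-4.84 ± 0.83, adjusted p = 0.00116; without WT1 adjusted p = 0.0544; DESeq2 adjusted p = 0.73). Smooth muscle markers moved with these genes. That list of 12, of which 8 or 9 had a UMI and *Cnn1* and *Actg2* were at 0 in every mouse, held 0.0957% to 0.102% of UMIs in WT low-endothelial pericytes and 0.0462% to 0.0578% in KO. In strict pericytes it held 0.112% to 0.115% in WT and 0.0734% to 0.0755% in KO, and in cells without contractile UMIs 0.0358% in both WT mice and 0.0291% and 0.0303% in KO. Its part in the falls was not tested. *Steap4*, a metalloreductase of iron and copper uptake, was at 413 and 249 CPM in WT low-endothelial pericytes and 21.0 and 40.8 in KO. No KO value reached a WT value, and the log2 fold change was -3.53 ± 0.31 (adjusted p = 1.1e-06), with -3.09 ± 0.32 in strict pericytes (adjusted p = 0.000129). In cells without contractile UMIs it was -3.79 ± 0.50 (adjusted p = 0.078), and in ECs *Steap4* stayed under 1 CPM on average. *Ccl19*, a ligand of the lymphocyte chemokine receptor CCR7, fell from 332 and 468 CPM to 25.7 and 49.0 (log2 fold change -3.58 ± 0.28, adjusted p = 4.12e-07). The fall was also present in strict pericytes (-2.91 ± 0.32, adjusted p = 0.000146) and at a far lower level in ECs, where the mean was 6.66 CPM in WT and 0.83 in KO (-3.01 ± 0.51, adjusted p = 0.0267). In the cells without contractile UMIs *Ccl19* had a log2 fold change of -1.60 ± 1.30 (adjusted p = 0.88). *Rasl11a*, a small GTPase of the RAS family, was at 196 and 211 CPM in WT and 38.5 and 40.8 in KO, with the 2 KO mice close together and far below WT (log2 fold change -2.37 ± 0.26, adjusted p = 1.53e-05; strict -2.25 ± 0.31, adjusted p = 0.000766). *Coch*, which encodes the extracellular protein cochlin, was at 109 and 72.7 CPM in WT and 2.33 and 8.17 in KO (log2 fold change -4.32 ± 0.55, adjusted p = 6.23e-05), from 20 and 21 UMIs in WT against 2 and 3 in KO, with 15 of the 20 WT1 UMIs in 1 cell. The strict log2 fold change of *Coch* was -4.73 ± 0.70 (adjusted p = 0.00107).

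A second group of lower genes was detected in more of the cells. At 1500 UMIs per cell *Apoe* was found in 57.1% and 47.6% of WT low-endothelial pericytes and 41.6% and 39.6% of KO ones, *Timp3* in 55.1% and 46.3% against 47.2% and 34.1%, and *Nr2f1* in 30.6% and 23.2% against 13.5% and 16.5%, so that the genotypes overlapped for *Timp3*. In ECs the shares were 55.1% to 64.4% for *Apoe*, 44.0% to 54.1% for *Timp3* and at most 0.123% for *Nr2f1*. *Apoe*, the main lipid carrier of the brain, was at 2214 and 1340.4 CPM in WT and 459.9 and 626 in KO (log2 fold change -1.71 ± 0.24, adjusted p = 0.000148; strict -2.43 ± 0.29, adjusted p = 0.000251). Both KO mice were below both WT mice, and ECs, at means of 985 and 751 CPM, did not pass the test (log2 fold change -0.39 ± 0.20, adjusted p = 0.368). The difference from the EC change was -1.26 ± 0.19 (adjusted p = 5.5e-09). *Timp3*, a matrix-bound inhibitor of metalloproteinases, was at 1609.9 and 1205 CPM in WT and 614 and 441 in KO (log2 fold change -1.40 ± 0.22, adjusted p = 0.000455; strict -1.80 ± 0.27, adjusted p = 0.00107). In ECs its mean levels were 667 and 792 CPM (log2 fold change 0.25 ± 0.16, adjusted p = 0.499), and the 2 changes differed by -1.60 ± 0.19 (adjusted p = 2.16e-14). *Nr2f1*, a nuclear receptor of the COUP family, fell from 364 and 249 CPM to 81.7 and 125 (log2 fold change -1.61 ± 0.25, adjusted p = 0.000421; strict -1.48 ± 0.27, adjusted p = 0.00813) and was under 1 CPM on average in ECs. In the 205 cells without contractile UMIs the log2 fold changes of *Rasl11a*, *Timp3* and *Nr2f1* were -2.08 ± 0.35, -1.77 ± 0.43 and -1.55 ± 0.37, with adjusted p-values of 0.11, 0.305 and 0.277, while *Apoe* was at -0.69 ± 0.25 (adjusted p = 0.556).

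Further genes were lower in both the low-endothelial and the strict pericytes. *Txnip*, an inhibitor of glucose uptake, fell by 1.70 ± 0.24 on the log2 scale in low-endothelial and by 2.01 ± 0.30 in strict pericytes. *Pmp22* fell by 2.11 ± 0.30 and by 2.53 ± 0.41. Elastin (*Eln*) was at 49.0 and 62.3 CPM in WT and 2.33 and 2.72 in KO (log2 fold change -4.38 ± 0.65, adjusted p = 0.0003; strict -4.76 ± 0.89, adjusted p = 0.00903). Smooth muscle cells had 374 and 328 CPM of *Eln* in WT and 291 and 337 in KO. The leptin receptor *Lepr* had log2 fold changes of -2.94 ± 0.50 and -3.44 ± 0.75, and the adrenergic receptor *Adra2a* of -3.38 ± 0.52 and -4.22 ± 0.77. The immediate early gene *Fosb* also passed in both sets. *Colec11*, a collectin, passed in low-endothelial pericytes (-3.15 ± 0.63, adjusted p = 0.00394; without WT1 adjusted p = 0.154) and had 0 UMIs in strict KO pericytes, where it was at least 13.9-fold lower than the WT mean, taking 3 counts over the 2 KO mice as the floor. *Timp2* passed as well (-1.46 ± 0.36, adjusted p = 0.0177; without WT1 adjusted p = 0.226), with -2.07 ± 0.43 in strict pericytes (adjusted p = 0.0192).

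Some of these genes lay in the same WT cells. Of the low-endothelial pericytes, 12 of 51 in WT1 and 16 of 92 in WT2 had UMIs of at least 3 of 8 falling genes, a threshold and a list set after the values were seen. In these cells *Vtn* was at 2561 and 5613 CPM of raw UMIs, against 10033 and 13698 in the other low-endothelial cells of the same mice, whereas *Rgs5* was at 10527 and 9505 against 10687 and 7672. *Angpt2* was at 413 and 409.7 CPM in them and at 86.2 and 13.1 in the others. They were deeper, with medians of 4513 and 3778.5 UMIs against 2607 and 2488, and had means of 2.33 and 3.31 contractile UMIs per cell against 1.95 and 0.83. Low *Vtn* at similar *Rgs5* thus described the WT cells with several falling genes in both WT mice. *Vtn* is part of the definition and these cells were deeper, and the trait was not tested. KO cells with at least 3 of the genes were 2 in KO1 and 3 in KO2. In them *Vtn* was at 6740.5 and 2989 CPM against 8658 and 9607 in the others, and *Rgs5* at 13897 and 10287 against 7789 and 8377. The number of such cells was not compared between genotypes, because the genes that define them are the genes that differ. In bulk sums such as these, fewer cells of a kind and less RNA per cell cannot be told apart.

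Genes of pericyte identity outside the definition were called lower or not called, that is, did not pass an adjusted p of 0.05. Of the 30 on the list, 28 were tested in low-endothelial pericytes, 0 were higher and 5 lower (1.58% of all genes tested were lower), among them *Notch3*, *Tbx18*, *Steap4* and *Colec11*, with a median log2 fold change of -0.27 against -0.00063 over all genes tested. In strict pericytes 2 of 28 were lower (*Steap4* and *Colec11*), where 0.967% of all genes were, and the median was 0.09 against -0.02. *Rgs5*, a regulator of G-protein signalling, was at 12113 and 8514 CPM in WT and 8188 and 9096 in KO (log2 fold change -0.25 ± 0.18, adjusted p = 0.551). The proteoglycan NG2 gene *Cspg4* was at 517 and 596 CPM in WT and 596.5 and 610.0 in KO (0.11 ± 0.20, adjusted p = 0.851). *Tbx18*, a mural transcription factor, lost its call (-0.91 ± 0.26, adjusted p = 0.0458) without WT2 (adjusted p = 0.287), KO1 (0.0659) or KO2 (0.133). The muscle-type filament gene *Des* (-0.26 ± 0.20, adjusted p = 0.585) and the peptidase gene *Anpep* (-0.53 ± 0.26, adjusted p = 0.326) did not pass either.

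*Notch3*, the mural Notch receptor, was at 995 and 862 CPM in WT and 537 and 536 in KO (-0.79 ± 0.19, adjusted p = 0.0194). Its call was lost without WT1 (adjusted p = 0.0946), KO1 (0.132) or KO2 (0.0735) and in strict pericytes (-0.41 ± 0.23, adjusted p = 0.654).

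Contractile and cytoskeletal genes were called in both directions. Of 24 tested in low-endothelial pericytes, where 3.91% of all genes were higher and 1.58% lower, 6 were higher (*Tpm4*, *Vim*, *Actn1*, *Csrp1*, *Csrp2* and *Myh10*) and 2 lower (*Tpm2* and *Lmod1*), with a median log2 fold change of 0.07. The call of *Tpm2* (-0.80 ± 0.20, adjusted p = 0.0207) was lost without WT2 (adjusted p = 0.0671), KO1 (0.264) or KO2 (0.0693). In strict pericytes 1 of 19 passed, the actin cross-linker *Actn1*, which rose from 75.1 and 24.9 CPM to 182 and 163 (log2 fold change 1.93 ± 0.41, adjusted p = 0.0192). In low-endothelial pericytes *Actn1* was at 70.7 and 31.2 CPM against 183 and 169, higher in both KO mice (1.91 ± 0.31, adjusted p = 0.000829). *Myl9* (-0.53 ± 0.19, adjusted p = 0.121) and *Cald1* (-0.0037 ± 0.17, adjusted p = 0.995) were not called in low-endothelial pericytes. Of 17 channels, receptors and cGMP genes, *Adra2a* was lower and the rest, including the endothelin receptor *Ednra* (-0.49 ± 0.20, adjusted p = 0.203) and the guanylate cyclase subunit *Gucy1a1* (-0.26 ± 0.21, adjusted p = 0.596), were not called. Among 11 transporters, 1 was called, *Slco2b1*, which was higher (1.64 ± 0.41, adjusted p = 0.021; without KO1 adjusted p = 0.267) and too low to be tested in strict pericytes.

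Matrix genes were the list with the most calls in low-endothelial pericytes that is not an endothelial one. Of 39 tested, 12 were higher and 3 lower, where 3.91% of all genes were higher and 1.58% lower. The median log2 fold change was 0.62 against -0.00063 over all genes. In strict pericytes 1 of 35 was higher (*Fn1*) and 3 lower (*Timp2*, *Timp3* and *Eln*), with a median of 0.44. Of all genes tested in strict pericytes, 0.523% were higher and 0.967% lower. The collagen IV chains *Col4a1* and *Col4a2* build the network of the basement membrane. *Col4a1* was at 1033 and 845 CPM in WT and 3409 and 2309 in KO, and *Col4a2* at 636 and 565 against 1892 and 1519.6, so all KO values were above all WT values. The log2 fold changes were 1.61 ± 0.21 and 1.51 ± 0.20 (adjusted p = 8.72e-05 for each). In strict pericytes they were 1.40 ± 0.36 and 1.06 ± 0.30 (adjusted p = 0.0759 and 0.138), and in cells without contractile UMIs 0.40 ± 0.22 and 0.30 ± 0.25 (adjusted p = 0.757 and 0.886). Much of the rise lay in few cells: 1 KO1 cell held 1015 of the 2920 *Col4a1* UMIs of low-endothelial KO1 pericytes, and at 1500 UMIs per cell *Col4a1* was detected in 57.1% and 64.6% of the cells in WT and 70.8% and 64.8% in KO. In ECs the mean of *Col4a1* went from 522 to 926 CPM (0.83 ± 0.21, adjusted p = 0.0872), and the change in low-endothelial pericytes exceeded it by 0.85 ± 0.18 (adjusted p = 0.000346).

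*Col4a1* and *Col4a2* lie head to head on chromosome 8 (chr8:11198423-11312826, minus strand, and chr8:11312805-11449287, plus strand, GRCm38), and their transcripts start within the same stretch of DNA. The RefSeq promoter windows of 300 bases (GRCm38.p6) are printed because the 2 genes moved together and share this region. *Col4a1* covers chr8:11312777-11313076 on the minus strand and *Col4a2* chr8:11312555-11312854 on the plus strand, each is written 5′ to 3′, and capitals mark the 78 bases (chr8:11312777-11312854) that both windows hold.
Col4a1: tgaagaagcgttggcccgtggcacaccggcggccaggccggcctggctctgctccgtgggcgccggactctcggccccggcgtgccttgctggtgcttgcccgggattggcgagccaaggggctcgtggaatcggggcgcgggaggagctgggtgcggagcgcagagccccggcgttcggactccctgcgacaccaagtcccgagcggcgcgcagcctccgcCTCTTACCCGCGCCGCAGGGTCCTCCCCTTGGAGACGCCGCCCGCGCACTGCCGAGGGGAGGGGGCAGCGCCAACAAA
Col4a2: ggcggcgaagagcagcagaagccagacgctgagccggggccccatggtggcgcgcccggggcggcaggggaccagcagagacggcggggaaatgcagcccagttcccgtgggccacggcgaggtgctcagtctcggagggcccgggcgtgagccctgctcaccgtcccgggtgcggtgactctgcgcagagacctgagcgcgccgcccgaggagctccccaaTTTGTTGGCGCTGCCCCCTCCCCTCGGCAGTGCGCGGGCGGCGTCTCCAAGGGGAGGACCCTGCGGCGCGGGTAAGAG
The letters GGGCGG, searched on both strands, occurred 1 time in the *Col4a1* window and 3 times in the *Col4a2* window, and 11714 of 32851 RefSeq windows of this length (35.7%) held them at least 1 time. A match is a description of the letters and not a mapped site.

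*Fn1* and *Col5a3*, the latter chosen after its values were seen, were higher as well. *Fn1*, fibronectin, was at 152 and 135 CPM in WT low-endothelial pericytes and 1003 and 901 in KO (log2 fold change 2.74 ± 0.23, adjusted p = 5.58e-07). It was detected in 12 of 51 and 11 of 92 cells in WT and 38 of 91 and 38 of 110 in KO. In strict pericytes it was at 67.6 and 29.9 CPM against 792 and 232 (3.56 ± 0.52, adjusted p = 0.00107), with 157 of the 266 KO1 UMIs in 1 cell. ECs themselves had means of 923 and 1213 CPM of *Fn1* (0.39 ± 0.15, adjusted p = 0.248), so *Fn1* was above the EC level in neither KO pericyte set, and the change exceeded that of ECs by 2.38 ± 0.22 (adjusted p = 4.99e-24). *Col5a3*, a fibrillar collagen chain, was at 32.6 and 17.3 CPM in WT and 194 and 87.1 in KO, and ECs had under 1 CPM on average (2.67 ± 0.46, adjusted p = 0.00126; strict 2.76 ± 0.61, adjusted p = 0.0257). Its UMIs came from 5 of 51 and 4 of 92 cells in WT and 26 of 91 and 11 of 110 in KO. The laminin chain *Lamb1* was at 125 and 128 CPM in WT and 402 and 340.4 in KO (1.56 ± 0.23, adjusted p = 0.000249; strict 1.15 ± 0.32, adjusted p = 0.117). The collagen cross-linking enzyme *Loxl2* was at 76.1 and 41.6 CPM in WT and 228 and 199 in KO (1.95 ± 0.28, adjusted p = 0.000233; strict 1.95 ± 0.48, adjusted p = 0.0515). *Lamb1* was higher in ECs as well (2.91 ± 0.47, adjusted p = 0.0245), by more than in low-endothelial pericytes (difference -1.23 ± 0.28, adjusted p = 0.000783), and *Loxl2* was higher in smooth muscle cells (2.25 ± 0.31, adjusted p = 0.0348). The basement membrane genes *Hspg2*, *Lama4*, *Nid1* and *Nid2* were higher in low-endothelial pericytes by 0.77 to 2.01 on the log2 scale, and none was called in strict pericytes. Without WT2 the calls of *Lama4*, *Nid1* and *Nid2* were lost (adjusted p = 0.0636, 0.118 and 0.143), and without KO1 those of *Nid1* and *Nid2* (0.14 and 0.102).

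Chemokine and growth factor genes moved in both directions. *Ccl11*, eotaxin-1, was at 16.3 and 10.4 CPM in WT low-endothelial pericytes and 238 and 153 in KO (log2 fold change 3.96 ± 0.42, adjusted p = 1.12e-05). In strict pericytes it was at 15.03 and 14.94 CPM against 500.1 and 191 (4.57 ± 0.56, adjusted p = 0.000251), and ECs had 0 to 0.1 CPM on average. The cells with a *Ccl11* UMI were 3 of 51 and 3 of 92 in WT and 15 of 91 and 14 of 110 in KO, and 84 of the 204 KO1 UMIs were in 1 cell. Of 15 chemokine and inflammation genes tested in low-endothelial pericytes, *Ccl11*, *Cxcl12* and *Cx3cl1* were higher and *Ccl19* and *Il34* lower, where 3.91% of all genes were higher and 1.58% lower. In strict pericytes *Ccl11* was higher and *Ccl19* and *Socs3* lower out of 12, where 0.523% of all genes were higher and 0.967% lower. *Cxcl12*, which ECs express at a mean of 1891 CPM in WT and 4263 in KO, had a log2 fold change of 1.03 ± 0.20 in low-endothelial pericytes (adjusted p = 0.00316) and -0.11 ± 0.32 in strict ones (adjusted p = 0.978). *Il34*, a ligand of the microglial receptor CSF1R, was at 364 and 326 CPM in WT and 199.6 and 172 in KO (-0.87 ± 0.21, adjusted p = 0.0142); without KO1 or KO2 it was not called (0.0718 and 0.0866), nor in strict pericytes (-0.37 ± 0.24, adjusted p = 0.712).

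*Igfbp5* and *Igf2* belong to the insulin-like growth factor system. *Igfbp5*, an IGF-binding protein chosen after its values were seen, had 3 and 0 UMIs in WT low-endothelial pericytes (16.3 and 0 CPM) and 77 and 81 in KO (89.9 and 221 CPM), with a log2 fold change of 4.43 ± 0.73 (adjusted p = 0.000847; DESeq2 adjusted p = 0.292). Of the 81 KO2 UMIs, 65 lay in 1 cell. The growth factor gene *Igf2*, which is also on the fibroblast list, had UMIs in 14 of 51 and 20 of 92 cells in WT and 46 of 91 and 33 of 110 in KO. *Igf2* was at 141 and 139 CPM in WT and 385 and 188 in KO (1.09 ± 0.29, adjusted p = 0.032; without KO1 adjusted p = 0.749), and at 150.3 and 174 against 789 and 375 in strict pericytes (1.87 ± 0.33, adjusted p = 0.0054). The TGF-beta ligand gene *Tgfb2* had a log2 fold change of 1.02 ± 0.26 in low-endothelial pericytes (adjusted p = 0.0233; without WT1 0.114, without KO1 0.279) and 1.76 ± 0.34 in strict pericytes (adjusted p = 0.00963), where it was at 67.6 and 64.7 CPM in WT and 256 and 177 in KO. The coagulation inhibitor *Tfpi* rose from 87.0 and 145 CPM to 329 and 251 (1.28 ± 0.25, adjusted p = 0.00349; strict 1.76 ± 0.36, adjusted p = 0.0153). The sphingosine receptor *S1pr3*, called in strict pericytes (1.16 ± 0.24, adjusted p = 0.0192), was not called in low-endothelial ones (0.60 ± 0.23, adjusted p = 0.158). Of all genes tested in low-endothelial pericytes, 3.91% were higher and 1.58% lower. Of 14 TGF-beta, BMP and CCN target genes tested in low-endothelial pericytes 4 were higher, among them *Ccn2*, *Skil* and *Ltbp4*, and 1 lower (*Id4*, -3.38 ± 0.66, adjusted p = 0.00346; without WT1, KO1 or KO2 adjusted p = 0.138, 0.201 and 0.215), and of 10 in strict pericytes none was called.

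**Figure D4:**
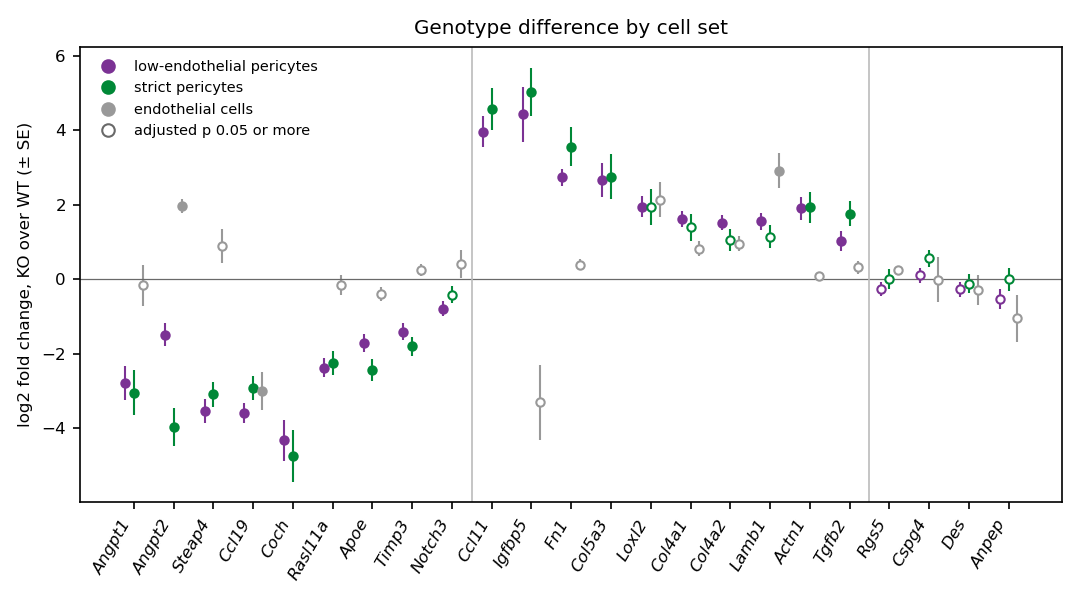
Log2 fold change (KO over WT) ± SE of the same genes in low-endothelial pericytes, strict pericytes and ECs; filled points have an adjusted p under 0.05, and a missing point means that the gene was too low to be tested in that set. *Steap4*, *Ccl19*, *Coch*, *Rasl11a*, *Apoe* and *Timp3* are filled and negative in both pericyte sets, *Notch3* only in the low-endothelial set, and *Angpt2* is negative in both pericyte sets and positive (1.97) in ECs.

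Several calls in low-endothelial pericytes concerned genes of ECs. Of the 20 endothelial markers 18 were tested, 10 were higher and 0 lower, and the median log2 fold change was 0.88. Of all genes tested in this set, 3.91% were higher and 1.58% lower. In strict pericytes, where 1.49% of all genes were called, 9 of these markers were tested and 0 called, with a median of -0.11. The list of genes of an EC cluster with tip cell genes, which the study defined on these libraries and which is therefore not independent evidence, had 14 of 16 higher in low-endothelial pericytes (median 1.78) and 0 of 8 higher in strict pericytes. *Apln*, the apelin ligand of sprouting ECs, had 0 UMIs in both WT mice and 611 and 193 in KO low-endothelial pericytes, at least 107-fold higher than the floor of 3 counts over the WT mice, with 504 of the 611 KO1 UMIs in 1 cell. *Esm1*, another tip cell gene, had 0 UMIs in WT and 283 and 244 in KO, at least 69.9-fold higher. Both genes were too low to be tested in strict pericytes, where *Apln* had 4 and 11 UMIs in KO and *Esm1* 2 and 4. The VEGF receptor *Kdr* (2.06 ± 0.24, adjusted p = 2.5e-05) and *Edn1* (3.45 ± 0.30, adjusted p = 7.6e-07) were likewise higher, and both were too low for a test in strict pericytes. These genes also rose in ECs: *Apln* from a mean of 4.62 to 231 CPM (5.63 ± 0.63, adjusted p = 0.00884), and *Esm1* from 45.0 to 194 (2.11 ± 0.29, adjusted p = 0.0165).

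Genes of mural recruitment in low-endothelial pericytes included both kinds. Of 25 tested, 9 were higher and 3 lower, where 3.91% of all genes tested were higher and 1.58% lower. The lower ones were *Angpt1*, *Notch3* and the ligand gene *Pdgfa* (-1.48 ± 0.24, adjusted p = 0.000829; strict -1.16 ± 0.29, adjusted p = 0.0667). In strict pericytes *Tgfb2* and *S1pr3* were higher and *Angpt1* lower, out of 18, where 0.523% of all genes were higher and 0.967% lower. The ligand gene *Pdgfb*, which ECs use to recruit pericytes, was among the 9 and was not called in strict pericytes. Integrins *Itga4*, *Itga6* and *Itgb1* were higher in low-endothelial pericytes out of 7 tested, and none of 6 in strict pericytes. *Itga4* also rose from a mean of 17.4 to 156 CPM in ECs (3.16 ± 0.28, adjusted p = 0.00643), and *Itgb1* lost its call in low-endothelial pericytes (0.67 ± 0.19, adjusted p = 0.0458) without WT2 (adjusted p = 0.261), KO1 (0.0904) or KO2 (0.128).

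Lists of metabolism and of stress responses differed in how many genes were called, against 5.49% of all genes in low-endothelial pericytes. Of 43 oxidative phosphorylation genes tested in low-endothelial pericytes 1 was higher (*Ndufa4*), of 22 glycolysis and hypoxia genes 3 were higher (*Slc2a1*, *Adm* and *Ankrd37*), of 20 interferon response genes 2 were higher (*Bst2* and *B2m*), and of 32 immediate early and heat shock genes 3 were higher and 2 lower. In strict pericytes, where 1.49% of all genes were called, the counts were 0 of 42, 0 of 15, 0 of 9 and 1 of 26, the last being *Fosb*, which was lower. Of 17 iron, amyloid and lysosome genes *Apoe* was the one called, and the transferrin receptor *Tfrc* (0.50 ± 0.28, adjusted p = 0.406) and the ferritin chain *Fth1* (-0.42 ± 0.18, adjusted p = 0.226) were not.

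Over all 677 cells, the largest changes included genes of sprouting ECs, of myelin and of antigen presentation. The largest rises with UMIs in both WT mice were *Apln* (log2 fold change 6.82 ± 0.75), *Prnd* (5.48 ± 0.61), *Ica1l* (4.57 ± 0.65), *Ablim3* (4.50 ± 0.58), *Gda* (4.35 ± 0.51) and *Ccl11* (4.08 ± 0.52), with adjusted p-values from 0.0117 to 0.0183. All 6 but *Ccl11* were also called higher in the ECs of the same libraries. *Kcng2*, *Nox4* and *Gpx3* had 0 UMIs in both WT mice and were at least 12.7-fold, 12.5-fold and 9.08-fold higher in KO, and *Cxcr4*, *Fgfbp1* and *Tnfsf8* were higher with UMIs in 1 WT mouse. The falls were led by the myelin genes *Mbp* (-5.01 ± 0.61) and *Mobp* (-4.30 ± 0.70), the peptidase gene *Napsa* (-4.16 ± 0.75) and the uncharacterised gene *E330017L17Rik* (-3.03 ± 0.54), followed by *Ccl19* (-2.94 ± 0.45, adjusted p = 0.0242), the platelet chemokine gene *Pf4* (-2.42 ± 0.42), the class I genes *H2-Q6* and *H2-Q7* (-2.25 ± 0.29 and -1.64 ± 0.20), *Lcn2* (-2.15 ± 0.26), *H2afy2* (-1.79 ± 0.31), *Ifi27l2a* (-1.65 ± 0.26) and *Rasl11a* (-1.57 ± 0.22). *H2-Q6* and *H2-Q7* are near-identical copies, so the split of their reads is uncertain. *Mbp*, *Mobp*, *Napsa*, *H2-Q7*, *H2afy2* and *Ifi27l2a* were also called lower in ECs, and *Rasl11a* was not (-0.16 ± 0.27, adjusted p = 0.824). These calls were lost when either WT mouse was left out. Fits without a KO mouse, which also leave a single mouse in a group, kept them. A fit without a WT mouse has no spread within WT, so the loss of a call there does not by itself show how far a value rests on that WT library. Of the called genes followed in these fits, 38 without WT1 and 36 without WT2, none turned its sign.

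Of the 21 mural and vessel genes that the study discusses, which were chosen on these libraries and are not independent evidence, 2 belong to the definition, 18 were tested over all 677 cells and 1 was called, *Itga4* (1.99 ± 0.35, adjusted p = 0.0442). Of all genes tested over these 677 cells, 0.63% were called. The endothelial receptors *Nrp1* (0.89 ± 0.20), *Tie1* (-0.24 ± 0.17) and *Tek* (-0.60 ± 0.28) had adjusted p-values of 0.0898, 0.582 and 0.38 there. *Itgav* (0.53 ± 0.23), *Itgb3* (1.17 ± 0.60), *Foxo1* (-0.31 ± 0.17) and *Vegfa* (-0.05 ± 0.48) were not called. *Lama1*, a fibroblast laminin chain, was at 6.43 and 7.57 CPM in WT and 0.78 and 4.73 in KO (-1.47 ± 0.71, adjusted p = 0.4), and had 0 UMIs in low-endothelial WT pericytes. *Pdgfra*, the fibroblast receptor, was at most 4.59 CPM over all members and was not tested.

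Genotype changes that differed between cell types were tested in a model with mouse and cell type as terms. Between all pericytes and ECs 41 of 14022 genes passed (0.292%), and between all pericytes and smooth muscle cells 3 of 10946 (0.0274%). With low-endothelial pericytes the counts were 359 of 13578 (2.64%) and 245 of 9577 (2.56%). Against ECs, low-endothelial pericytes fell further in *Steap4* (difference -4.32 ± 0.71, adjusted p = 2.63e-07), *Coch* (-4.64 ± 1.34, adjusted p = 0.0232) and *Rasl11a* (-2.12 ± 0.53, adjusted p = 0.00433), but not detectably in *Angpt1* (-2.28 ± 0.77, adjusted p = 0.0907) or *Ccl19* (-0.52 ± 0.47, adjusted p = 0.856). Against smooth muscle cells they fell further in *Steap4* (-4.54 ± 0.46, adjusted p = 1.97e-05) and *Ccl19* (-4.22 ± 0.52, adjusted p = 5.6e-05). Both comparisons use the same pericyte sums, so their values are not independent. *Lhfp* and *Rgs6* had differences of -2.28 ± 0.22 and -6.01 ± 0.72 against ECs. Both rose in ECs, from means of 3.71 and 0.307 CPM in WT to 21.0 and 7.75 in KO, whereas low-endothelial pericytes had 473 and 443 CPM of *Lhfp* in WT and 504 and 512 in KO (0.15 ± 0.20, adjusted p = 0.789). *Rgs6* was lower in KO low-endothelial pericytes without being called, at 76.1 and 48.5 CPM in WT and 35.0 and 13.6 in KO (-1.09 ± 0.44, adjusted p = 0.192).

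Haemoglobin genes differed between mice: in low-endothelial pericytes *Hbb-bs* was at 125 and 104 CPM in WT and 2505 and 212 in KO, with KO1 far above the rest (3.61 ± 0.69, adjusted p = 0.00287; without KO1 adjusted p = 0.0718), and in strict pericytes the genotypes overlapped (0.28 ± 0.64, adjusted p = 0.965). The choroid plexus gene *Ttr* was at 11177 CPM over all KO2 pericytes and 51.3 to 641 in the other mice. Of the KO2 members, 18 had UMIs of at least 3 of 5 choroid genes, against 3 in WT2 and 0 in WT1 and KO1, and 1 KO2 cell held 7601 of 30703 *Ttr* UMIs. The choroid genes *Sostdc1*, *Ecrg4*, *Igfbp2* and *Prlr*, which led the difference between all pericytes and ECs, had 76.4 to 194 CPM over all pericytes in KO2 against at most 13.1 in any other mouse. In low-endothelial pericytes *Ttr* was at 1430.4 and 1334 CPM in WT and 50.2 and 425 in KO (-2.65 ± 0.51, adjusted p = 0.0032; DESeq2 adjusted p = 0.655).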

How the data were processed

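Cerebral microvascular fragments of 4 mice (n = 2 per genotype) were profiled by 10x 3′ single-cell RNA sequencing, 1 library per mouse. Per the labels, the authors made the deposited UMI counts per gene and cell with Cell Ranger 6.1.2 (6.1.1 in the file header) on mm10. Other steps of the count processing are not given in the sources used here. No doublet caller was run. The split by endothelial UMIs dealt with endothelial RNA only, and it did not remove barcodes mixed with RNA of other cell types.

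The raw counts were filtered and classed by the stated rules, summed per mouse and cell class, and tested with edgeR 4.0.16 in R 4.3.3 (TMM scaling, filterByExpr, quasi-likelihood F test, Benjamini-Hochberg adjustment, threshold 0.05). Differences between cell types were fitted with mouse, cell type and their interaction with genotype. ECs needed at least 3 endothelial markers, at least 5 UMIs of Cldn5 and Flt1 and under 2 of Pdgfrb and Vtn, and smooth muscle cells at least 10 contractile UMIs, more than of Cldn5 and Flt1. The 40 duplicated symbols of 32286 rows were kept under distinct names. Summed pericyte depth was 1114037 to 3775613 UMIs per mouse, and 209432 to 891055 for low-endothelial pericytes.

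The members and gene lists were chosen with earlier results of these data known. The genes named were those of the definition, those the study discusses, the 12 largest rises and falls over all members, the 8 genes with the smallest p in each difference test, up to 4 per gene list, and others chosen after their values were seen, among them Coch, Eln, Txnip, Pmp22, Nr2f1, Lepr, Igfbp5, Tfpi, Lhfp and the haemoglobin and choroid genes. The results of some genes are not reported here. A gene was called when its adjusted p was under 0.05. Alternatives were DESeq2 1.42.0, no filter, RLE scaling, leaving out each mouse, a replicate block, thinned cells and other limits of the definition. On simulated counts with a log2 change of 2, the test recovered 85% of changed genes over 10948 genes of all members and 84% over 6012 genes of low-endothelial pericytes.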

Additional observations from a re-analysis of the deposited data

Results flagged for a closer look

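Differences between the genotype change of pericytes and that of another cell type of the same mice passed an adjusted p of 0.05 (edgeR, interaction of genotype and cell type) for the genes that follow, given as log2 differences, pericytes minus the other cells. Over all pericytes against ECs 41 of 14022 genes passed (0.292%). The 8 with the smallest p were *Lhfp* (-1.82), *Rgs6* (-4.33), *Dmd* (-1.05), *Igfbp5* (6.08), *Igfbp2* (4.68), *Prlr* (2.85), *Sostdc1* (6.01) and *Ecrg4* (4.36). The last 4 rested on the KO2 library, in which 18 pericytes had UMIs of at least 3 of 5 choroid genes. Over all pericytes against smooth muscle cells 3 of 10946 genes passed (0.0274%), *Igfbp3* (-1.90), *Angpt2* (2.64) and *Ccn2* (3.22). Most UMIs of all pericytes came from endothelial-rich barcodes. *Angpt2* was lower in KO in low-endothelial and strict pericytes (log2 fold change -1.49 and -3.97). Its change in low-endothelial pericytes did not differ detectably from that in smooth muscle cells. *Ccn2* was higher in low-endothelial pericytes (2.23) but not called in strict ones (-0.31). In low-endothelial pericytes against ECs 359 of 13578 genes passed (2.64%), among them *Angpt2* (-3.45), *Fn1* (2.38), *Timp3* (-1.60), *Igfbp5* (8.02) and *Steap4* (-4.32). For *Igfbp5*, 65 of the 81 KO2 UMIs lay in 1 low-endothelial cell.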

How the results depend on the processing

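Over all pericytes 69 genes passed, and the number was 179 with DESeq2, 759 without a filter on low counts, 572 with a replicate block, 138 with at least 10 *Pdgfrb* and *Vtn* UMIs, 156 with at least 4 markers, 217 with under 3 contractile UMIs, 26 with no cap on them, 34 with thinned cells and 330 in low-endothelial pericytes. Leaving out 1 mouse gave 0 to 897 genes, 0 without WT1 or WT2, 252 without KO1 and 897 without KO2. In low-endothelial pericytes 330 genes passed, against 122 with DESeq2, 507 without a filter, 383 with a replicate block, 57 in strict pericytes and 0 in cells with no contractile UMI, and 205 (without KO1) to 386 when 1 mouse was left out. Of 86 genes called in low-endothelial pericytes, the number still called in the same direction was 86 with RLE scaling, 83 with no filter, 85 with the block, 51 with DESeq2, 62 of the 83 tested without KO1, 70 of 85 without WT2, 74 of 85 without KO2 and 74 of 86 without WT1, 36 of 64 in strict pericytes and 0 of 55 in cells with no contractile UMI. These 86 genes are a part of the 330, so their counts do not stand for all calls. Of all higher calls outside the definition, 17 of the 109 tested in strict pericytes were called there in the same direction. For the lower calls it was 31 of 83. Same-numbered mice share their sex, so the replicate block is also a term for sex. The study mentions 2 independent experiments without saying which mice belonged to which, the labels tie the numbers to no day or litter, and the deviations of same-numbered mice correlated at 0.03 (all members) and 0.08 (low-endothelial). The difference from ECs passed for 41 genes, 15 with DESeq2, 196 without a filter, 1 to 466 with 1 mouse left out (1 without WT2) and 359 with low-endothelial pericytes. The difference from smooth muscle cells passed for 3, 13, 338 and 0 to 628 genes in the same order, 0 with RLE scaling and 245 with low-endothelial pericytes. The KO minus WT difference in pericyte share was 1.17 percentage points for low-endothelial and 0.551 for strict pericytes, and that in endothelial UMIs 0.596 for low-endothelial pericytes. The sign turned for *Cxcl12* (-0.11), *Nrp1* (-0.44) and *Ccn2* (-0.31) in strict pericytes. In the difference from ECs it ranged from -5.49 to 4.60 for *Ecrg4* and from -2.23 to 6.13 for *Sostdc1* with 1 mouse left out, the lowest without KO2, and turned for *Ecrg4* (-9.20), *Sostdc1* (-5.84) and *Prlr* (-9.63) with low-endothelial pericytes. The cause was not tested. With 2 mice per genotype, simulated log2 changes of 1 were recovered for 33% of genes over all pericytes and 37% in low-endothelial pericytes, so smaller changes were mostly not detectable at this depth.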
